A study of Mus musculus with 8 samples.

Results

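The endoplasmic reticulum chaperones and stress genes described here are Hspa5, Hsp90b1, Calr, Pdia4, Pdia6, Dnajb9, Sdf2l1, Creld2, Ddit3 and Xbp1. They were chosen by name as genes of this compartment and its stress response, with earlier results of these data known. All 10 were found among the 20738 genes named on the arrays, through 21 of the 62976 features (spots): 10 for Creld2, 2 each for Pdia6 and Dnajb9, and 1 for each of the rest. The series holds 8 one-colour Agilent arrays of liver RNA from male mice of the outbred CD-1 stock. For 7 days the mice received either feed without test substance (0 ppm, 4 arrays) or feed holding 2500 ppm NaPB (4 arrays). NaPB is sodium phenobarbital, a barbiturate drug and the classical activator of CAR, a nuclear receptor of hepatocytes. Both groups are otherwise described alike, and the age of the mice is not given in the sources used here. Whether each array stands for its own animal is not stated either, and p-values here therefore cover only the spread between these samples, which may be technical.

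The endoplasmic reticulum is where hepatocytes fold the plasma proteins they secrete, and where the P450 enzymes sit in the membrane. When unfolded protein builds up there, the sensors ATF6, IRE1 and PERK set off the unfolded protein response: ATF6 and the spliced form of XBP1 switch on genes of chaperones and of protein disposal, and PERK acts through ATF4 on amino acid and redox genes and on CHOP, which Ddit3 encodes. Phenobarbital is known for making the smooth endoplasmic reticulum of hepatocytes proliferate. The comparison asks whether transcripts of these chaperones and stress genes differed between the diets.

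ATF6 acts through a DNA element named ERSE, spelled CCAAT, then 9 bases of any kind, then CCACG. The first part is a CCAAT box, bound by NF-Y, and the last part is the one that ATF6 reads. The element was searched on both strands of RefSeq promoter windows of the build GRCm38.p6, each holding 250 bases before a transcription start and 50 after it. It was found in 39 of 32851 windows (0.119%) and in the windows of 5 of the 10 genes, which are genes long known as targets of this response. The 6 matches are printed below in the direction of the element, with the 2 fixed parts in capitals, because they mark the chaperone genes whose array values are compared further on.
Hspa5: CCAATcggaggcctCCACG
Hsp90b1, far match: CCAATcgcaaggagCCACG
Hsp90b1, near match: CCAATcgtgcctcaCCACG
Calr: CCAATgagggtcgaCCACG
Pdia6: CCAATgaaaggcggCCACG
Creld2: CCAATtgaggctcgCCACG
The match lay 47 to 65 bases upstream of the start in Hspa5, 80 to 98 in Pdia6, 108 to 126 in Creld2 and 144 to 162 in Calr. Hsp90b1 held a pair, at 89 to 107 and 194 to 212 bases. The window of Pdia4 held the element except for its last base (CCAAT, 9 bases, CCAC), as 120 of the 32851 windows did (0.365%), a count that includes the full matches. The windows of Dnajb9, Sdf2l1, Ddit3 and Xbp1 held no full match, which says only that these letters are not in these windows. None of the 10 windows held ERSE-II (ATTGG, 1 base of any kind, CCACG, in 0.0365% of all windows), the XBP1 element UPRE (TGACGTGG, 0.676%) or the ATF4 element of amino acid response genes (TTGCATCA, 0.895%), each searched on both strands. The bare CCAAT box, which is part of ERSE, was in 9 of the 10 windows and in 37.4% of all.

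**Figure D1:**
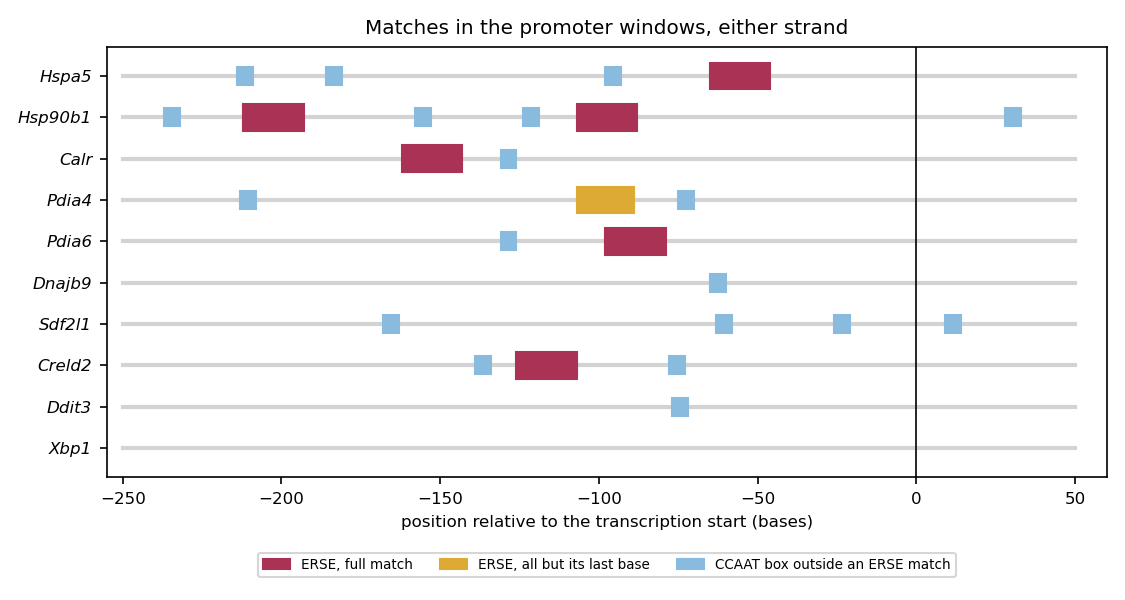
Motif matches in the promoter windows of the 10 genes (rows), by distance from the transcription start in bases (horizontal axis), on either strand. Red boxes are full ERSE matches, present in Hspa5, Hsp90b1, Calr, Pdia6 and Creld2; the yellow box in Pdia4 lacks the last base, and blue boxes are other CCAAT boxes.

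The whole window is shown for Hspa5 and Creld2, a pair with a full match whose values followed each other closely over the arrays, and for Sdf2l1 and Dnajb9, the genes with the largest differences between the diets. Capitals mark the full ERSE match as it reads on the strand of the gene.
Hspa5 (chr2:34771840-34772139, plus strand): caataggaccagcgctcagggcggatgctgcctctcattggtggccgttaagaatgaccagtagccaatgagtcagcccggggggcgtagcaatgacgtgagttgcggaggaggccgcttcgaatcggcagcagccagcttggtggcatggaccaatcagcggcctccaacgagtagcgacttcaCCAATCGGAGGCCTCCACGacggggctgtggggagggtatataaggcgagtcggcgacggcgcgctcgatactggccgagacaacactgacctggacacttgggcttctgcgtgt
Creld2 (chr15:88819396-88819695, plus strand): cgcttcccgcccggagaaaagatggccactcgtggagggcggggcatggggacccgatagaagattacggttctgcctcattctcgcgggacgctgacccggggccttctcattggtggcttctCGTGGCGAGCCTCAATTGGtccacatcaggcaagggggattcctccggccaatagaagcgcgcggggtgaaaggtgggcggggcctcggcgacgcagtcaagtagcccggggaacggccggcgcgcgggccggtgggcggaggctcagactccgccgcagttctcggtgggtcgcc
Sdf2l1 (chr16:17132334-17132633, minus strand): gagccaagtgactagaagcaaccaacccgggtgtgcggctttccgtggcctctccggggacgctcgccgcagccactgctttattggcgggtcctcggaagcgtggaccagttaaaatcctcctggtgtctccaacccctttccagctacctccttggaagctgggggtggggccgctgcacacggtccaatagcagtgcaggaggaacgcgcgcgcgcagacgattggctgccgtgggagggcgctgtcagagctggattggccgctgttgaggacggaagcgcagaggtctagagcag
Dnajb9 (chr12:44210019-44210318, minus strand): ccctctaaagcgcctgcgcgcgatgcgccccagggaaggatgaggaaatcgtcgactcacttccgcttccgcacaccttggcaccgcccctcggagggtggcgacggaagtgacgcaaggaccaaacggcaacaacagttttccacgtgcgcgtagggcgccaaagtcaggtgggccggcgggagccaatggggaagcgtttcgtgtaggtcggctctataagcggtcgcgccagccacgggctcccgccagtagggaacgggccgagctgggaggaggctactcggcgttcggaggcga
In Creld2 the element runs against the direction of the gene, so its capitals begin with CGTGG and end with ATTGG.

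A pair of arrays stood apart within their own diets over all genes, control replicate 1 and NaPB replicate 4. Results that rest on them are given with and without them. Of all genes, 43.8% had their highest control value on control replicate 1 and 43.7% their lowest NaPB value on NaPB replicate 4. Both held for 26.5%. Across the diets they had near neighbours by the ratio of the 99th to the 75th percentile. Control replicate 1 (124.4) was near NaPB replicate 2 (124.7), and NaPB replicate 4 (62.3) near control replicate 2 (65.8). The 10 hepatocyte markers checked, among them Alb, Ttr and Cps1, were above the floor of the arrays (a value up to 2 times the lowest of its array) on all 8 arrays. Plasma cells hold much endoplasmic reticulum, and over the 9 markers of plasma and B cells the summed intensity was 5.18 to 6.89 on the control and 4.95 to 6.16 on the NaPB arrays. The brightest of them by mean were Cd79a, Sdc1 and Derl3, which is also among the genes of disposal of misfolded protein below. Jchain (0.046 to 0.195) was dim and Tnfrsf17 was at the floor on 6 arrays, so the sum says little of plasma cells. These are whole livers, so fewer cells of a type and less RNA per cell cannot be told apart. Intensities are the deposited values, scaled so that the 75th percentile of an array is close to 1, and the number of arrays limits the precision.

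None of the 10 genes passed the test between the diets. With limma on log2 intensities and Benjamini-Hochberg adjustment over all 20738 genes, 0 of 10 were called at an adjusted p below 0.05, where 1.01% of all genes were called (0.391% higher and 0.617% lower on NaPB); the smallest adjusted p was 0.232, for Sdf2l1. At an unadjusted p below 0.05 there were 2, Sdf2l1 (lower on NaPB) and Dnajb9 (higher on NaPB), against 10.1% of all genes. Sdf2l1 was also the only one of the 10 whose diets did not overlap by the brightest feature, as 4.31% of all genes did with NaPB lower (2.72% with NaPB higher, 7.04% in all). The median log2 difference of the 10 genes, NaPB minus control, was −0.05, against 0.01 over all genes. For 6 of the 10, Hspa5, Hsp90b1, Pdia4, Pdia6, Ddit3 and Xbp1, the 95% interval of the difference lay within 2-fold in either direction. Without control replicate 1 and NaPB replicate 4 it did so for 6 as well, but with Calr in and Hspa5 out (interval of Hspa5 from −0.27 to 1.12).

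**Figure D2:**
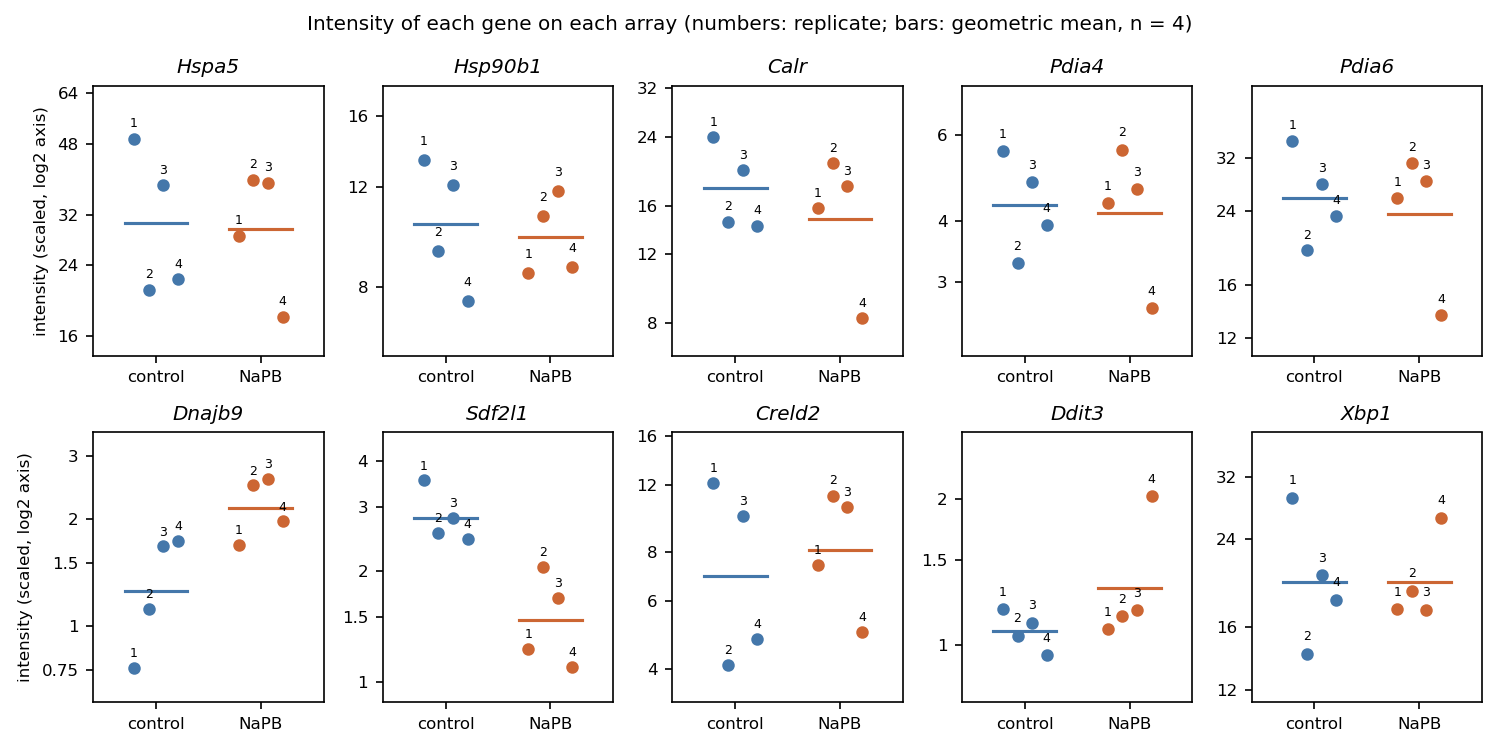
Intensity of each of the 10 genes on each array (vertical axes, scaled intensity on a log2 axis), by diet (horizontal axes), with the replicate number beside each point and bars at the geometric mean of the 4 arrays. Sdf2l1 is lower on every NaPB array than on every control array, while the chaperone genes Hspa5 to Pdia6 and Creld2 span similar ranges on both diets.

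The chaperone genes proper showed no difference beyond their spread. Hspa5 encodes BiP, the Hsp70 chaperone of the endoplasmic reticulum and the brake on the sensors. Its intensity was 49.4, 20.8, 37.9 and 22.1 on controls 1 to 4 and 28.4, 39.1, 38.4 and 17.9 on NaPB 1 to 4. The groups overlapped almost wholly: control replicate 1 was the highest of all arrays and NaPB replicate 4 the lowest. The log2 difference was −0.04 ± 0.38 (SE, 4 arrays per diet; limma adjusted p = 0.984), with a 95% interval from −0.88 to 0.79, that is from 1.84-fold lower to 1.72-fold higher.

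Hsp90b1, which encodes GRP94, the Hsp90 of this compartment, lay at 13.4, 9.27, 12.1 and 7.57 on controls 1 to 4, and at 8.48, 10.65, 11.8 and 8.69 on NaPB 1 to 4. All NaPB values fell inside the range of the controls, and the log2 difference was −0.07 ± 0.28 (SE; interval −0.69 to 0.55; limma adjusted p = 0.96). Calr encodes calreticulin, a lectin chaperone that binds glycoproteins and calcium. It lay at 24.0, 14.6, 19.7 and 14.2 on controls 1 to 4, and at 15.7, 20.6, 17.9 and 8.23 on NaPB 1 to 4. NaPB replicate 4 stood below every control and the other NaPB arrays inside their range. The log2 difference of Calr was −0.26 ± 0.34 (interval −1.02 to 0.50; limma adjusted p = 0.869), and 0.02 without NaPB replicate 4. Without that array 0 of the 10 genes were called, where 1.76% of all genes were.

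Pdia4 and Pdia6 encode protein disulfide isomerases, which form and rearrange the disulfide bonds of secreted proteins. Pdia4 lay at 5.56, 3.28, 4.81 and 3.92 on controls 1 to 4, and at 4.35, 5.59, 4.64 and 2.65 on NaPB 1 to 4. The brighter feature of Pdia6 lay at 35.1, 19.4, 27.8 and 23.3 on controls 1 to 4, and at 25.7, 31.2, 28.2 and 13.6 on NaPB 1 to 4. For both genes NaPB replicate 4 was the lowest array of all and control replicate 2 the lowest control. The log2 differences were −0.05 ± 0.31 for Pdia4 and −0.13 ± 0.33 for Pdia6 (limma adjusted p of 0.976 and 0.937). The dimmer feature of Pdia6 lay between 1.34 and 1.70 on the control and between 1.21 and 1.54 on the NaPB arrays, with a log2 difference of −0.14, near that of the brighter one.

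Creld2, which encodes a disulfide isomerase-like protein induced by this response, had the widest spread of the 10 genes between control arrays (log2 SD 0.77; 0.54 between NaPB arrays). Its brightest feature lay at 12.1, 4.08, 9.92 and 4.78 on controls 1 to 4, and at 7.43, 11.2, 10.5 and 4.98 on NaPB 1 to 4. Control replicates 1 and 3 and NaPB replicates 2 and 3 were high, and the other arrays lower. The log2 difference was 0.22 ± 0.42 (interval −0.70 to 1.15; limma adjusted p = 0.915). The 10 features of Creld2 gave differences between 0.09 and 0.40, all above 0. They also give a measure of spot error: on 1 array the features scattered around their own means with an SD of 0.06 to 0.14 log2 units, against an SD of 0.71 between the control arrays and 0.59 between the NaPB arrays. Spot scatter does not cover labelling and hybridisation, and other genes were not measured this way.

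Sdf2l1 and Dnajb9, both partners of BiP, lay furthest from 0, in opposite directions. Sdf2l1 encodes a small protein that works with BiP and J proteins against aggregation. Its intensity was 3.54, 2.55, 2.79 and 2.45 on the control arrays and 1.23, 2.06, 1.70 and 1.10 on the NaPB arrays. Every NaPB array was below every control, by a log2 difference of −0.93 ± 0.29 (SE, 4 arrays per diet; interval −1.57 to −0.29; 1.90-fold lower), and the gene did not pass the test over all genes (unadjusted p = 0.0087, limma adjusted p = 0.232). Over the other settings tried, of which 16 can move a difference, the log2 difference of Sdf2l1 ran from −1.09 to −0.61 and the limma adjusted p from 0.0772 to 0.504, with no call. Without control replicate 1 and NaPB replicate 4 it was −0.67 ± 0.26 (limma adjusted p = 0.204).

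Dnajb9 encodes ERdj4, a J protein that brings BiP to its clients and to IRE1. Its brighter feature lay at 0.760, 1.11, 1.67 and 1.73 on controls 1 to 4, and at 1.69, 2.48, 2.59 and 1.97 on NaPB 1 to 4. NaPB replicates 2 to 4 were above every control, and NaPB replicate 1 was inside their range. The log2 difference was 0.78 ± 0.33 (1.72-fold higher; unadjusted p = 0.0368, limma adjusted p = 0.441). The other feature lay between 0.626 and 1.30 in the controls and between 1.38 and 2.63 on the NaPB arrays, without overlap. Its log2 difference was 1.02 ± 0.34 (limma adjusted p = 0.277 over all 62976 features, of which 1.02% were called). Control replicate 1 was the lowest array on both features, and without it the difference of the brighter one was 0.54 ± 0.28. On control replicate 1, then, Dnajb9 was at its lowest while the other 9 genes were each at their highest control value.

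**Figure D3:**
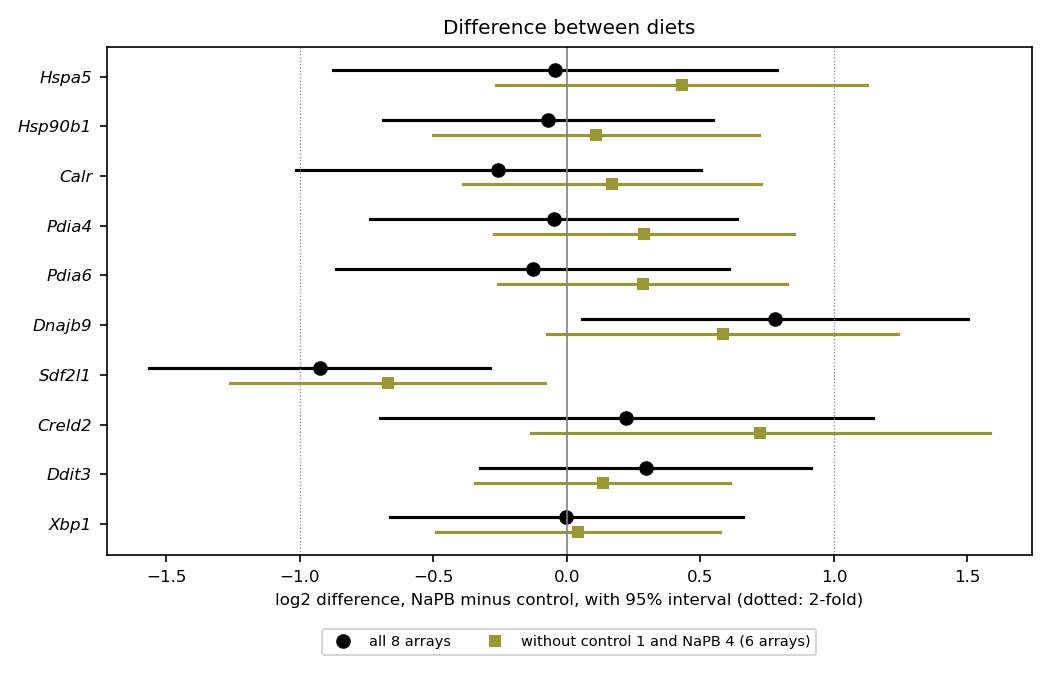
Log2 difference between the diets, NaPB minus control (horizontal axis), with its 95% interval for each gene (rows), with all 8 arrays (black circles) and without control replicate 1 and NaPB replicate 4 (olive squares). Dotted lines mark 2-fold; the intervals of Sdf2l1 exclude 0 in both fits and no gene passed after adjustment over all genes.

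The stress transcription factors gave no difference by diet beyond their spread. Xbp1, whose mRNA is spliced by IRE1, lay at 29.1, 14.2, 20.4 and 18.2 on controls 1 to 4, and at 17.4, 18.9, 17.3 and 26.5 on NaPB 1 to 4. All NaPB values were inside the range of the controls, and the log2 difference was −0.0027 ± 0.30 (interval −0.66 to 0.66; limma adjusted p = 0.999). The 1 feature gives total Xbp1, and whether it lies on the spliced stretch is not given in the sources used here. Ddit3, which encodes CHOP, a factor tied to prolonged stress, lay at 1.18, 1.046, 1.11 and 0.953 on controls 1 to 4, and at 1.08, 1.15, 1.18 and 2.03 on NaPB 1 to 4. NaPB replicate 4 was above all other arrays, and NaPB 1 to 3 were inside the range of the controls. The log2 difference was 0.29 ± 0.28 (limma adjusted p = 0.814), and 0.08 without NaPB replicate 4.

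The 6 chaperone genes Hspa5, Hsp90b1, Calr, Pdia4, Pdia6 and Creld2 followed one pattern over the arrays, apart from diet. Each had its highest control value on control replicate 1 and its second highest on control replicate 3, and 5 of the 6, all but Hsp90b1, had their lowest NaPB value on NaPB replicate 4. Hspa5 lay 0.70, −0.55, 0.31 and −0.46 log2 units from its control mean on controls 1 to 4, and Creld2 lay 0.80, −0.77, 0.51 and −0.54. On NaPB 1 to 4 these deviations were −0.10, 0.36, 0.33 and −0.77 for Hspa5 and 0.09, 0.69, 0.59 and −0.48 for Creld2. The order of the arrays is shared far beyond these genes: among genes at or above the median intensity, 40.3% had both control replicate 1 highest and NaPB replicate 4 lowest. The ratio of the 99th to the 75th percentile of an array was 124, 66, 103 and 81 on controls 1 to 4. It was 113, 125, 107 and 62 on NaPB 1 to 4. Its order over the controls was that of Hspa5, and NaPB replicate 4 was again the lowest. The part of this range in the pattern of the chaperones was not tested. The medians of the 10 hepatocyte markers were 0.41, −0.36, 0.20 and −0.22 on controls 1 to 4 and −0.40, −0.16, −0.45 and −0.96 on NaPB 1 to 4. Their part in the pattern of the chaperones was not tested.

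As a description with no test, genes at or above the median intensity were ranked by Pearson r with Hspa5 over the 8 arrays, which share the arrays that stand apart. The first 5 of 10368 were Lysmd1 (0.978), 1300017J02Rik (0.977), Gm5963 (0.974), Coq7 (0.966) and 5430400D12Rik (0.966). Creld2 had rank 10, Pdia4 rank 43, Pdia6 rank 72, Calr rank 151 and Hsp90b1 rank 617, with r from 0.960 down to 0.861. Sdf2l1, with r of 0.499, had rank 5177, and Xbp1 had rank 6630, Dnajb9 7822 and Ddit3 8253. Among the members, the chaperones Creld2, Pdia4, Pdia6, Calr and Hsp90b1 were thus nearer to Hspa5 than the rest. Pdia4, which has no full ERSE match, ranked above Hsp90b1, which holds a pair of them. The part of the element in these ranks was not tested.

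**Figure D4:**
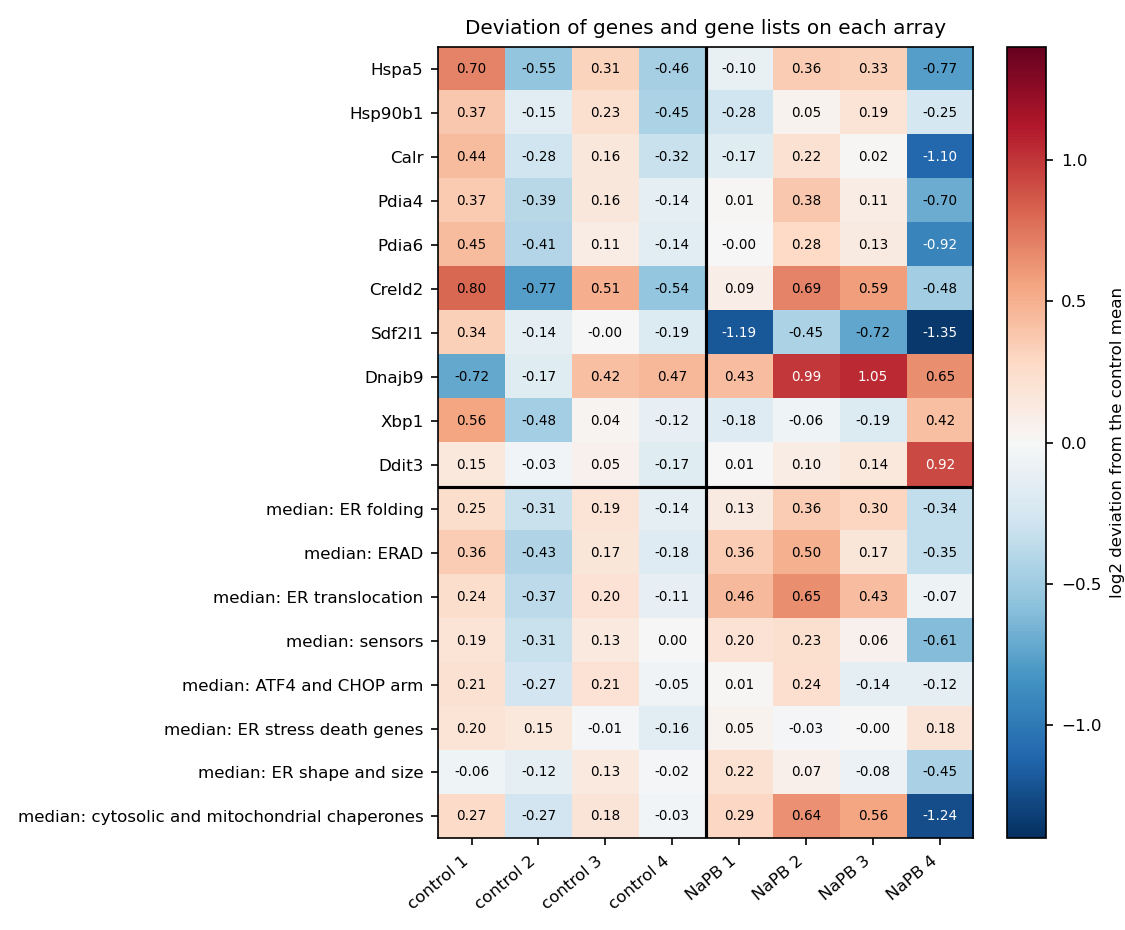
Log2 deviation from the mean of the 4 control arrays (colour and number) for the 10 genes (upper rows) and for the median of each gene list (lower rows), on each array (columns). Red is higher and blue lower: Hspa5 to Creld2 alternate over the control arrays and 5 of these 6 are lowest on NaPB replicate 4, Sdf2l1 is below 0 on all NaPB arrays, and Ddit3 stands out on NaPB replicate 4 at 0.92.

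On NaPB replicate 4, Calr, Pdia6, Hspa5 and Pdia4 lay below every control, and Ddit3 lay above every other array. Calr lay −1.10, Pdia6 −0.92, Hspa5 −0.77 and Pdia4 −0.70 log2 units from the control mean, and Ddit3 lay 0.92 above it. Creld2 (−0.48) and Hsp90b1 (−0.25) were inside the range of the controls. So was Xbp1, at 0.42 against 0.56 on control replicate 1. Among genes at or above the median intensity, 6217 of 10369 had their lowest NaPB value on this array. Low values there are thus not particular to the chaperones. The first 5 of 10368 genes by r with Ddit3 were Krtap11-1 (0.987), Orm2 (0.980), Orm1 (0.974), Uggt1 (0.970) and Epha1 (0.967), all by 1 array. Orm1 and Orm2 encode acute phase glycoproteins: Orm1 lay between 15.0 and 24.7 on the other 7 arrays and at 58.4 on NaPB replicate 4, and Orm2 between 21.0 and 33.9 and at 86.2. The part of the acute phase genes in the Ddit3 value was not tested. Uggt1, the glucosyltransferase that checks the folding of glycoproteins, lay between 3.18 and 6.85 on 7 arrays and at 1019 on NaPB replicate 4 by its brighter feature. Its other feature lay between 0.389 and 0.651 on all 8 arrays, so the features disagree.

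Leaving out both arrays that stand apart moved the differences of the chaperones upwards, with no call. The median log2 difference of the 10 genes was then 0.23, and 9 of 10 lay above 0, where 52.3% of all genes did. Control replicate 1 was the highest control for 9 of the 10 genes, and NaPB replicate 4 the lowest NaPB array for 6. Both held for 6 of the 10, against 26.5% of all genes. The rise thus follows in part from which arrays were left out, and all genes are no like comparison. The arrays kept had a ratio of 99th to 75th percentile of 66 to 103 (controls) and 107 to 125 (NaPB). Its part in the rise was not tested. Creld2 had 0.72 ± 0.37 (limma adjusted p = 0.325), Hspa5 0.43 ± 0.30 (0.47), Pdia4 0.29 ± 0.24 (0.551) and Pdia6 0.28 ± 0.23 (0.544), with 6 arrays. Still 0 of 10 were called, where 2.75% of all genes were. The signs of Hspa5, Hsp90b1, Calr, Pdia4, Pdia6 and Xbp1 turned between these fits, so these data give no direction for them.

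Other genes of the response and of the organelle were read from 8 lists. Among 30 other folding genes of the endoplasmic reticulum, 0 were called by limma and 2 had an unadjusted p below 0.05, both higher; 18 of 30 lay above 0, and the median log2 difference was 0.12, against 0.01 and 51.2% above 0 over all genes. The median was 0.24 without NaPB replicate 4 and 0.29 without both arrays that stand apart, where 25 of the 30 (83.3%) lay above 0, against 52.3% of all genes. The median deviation of this list was the highest on control replicate 1 among the controls (0.25), and the lowest of all on NaPB replicate 4 (−0.34). Such a rise thus follows in part from which arrays were left out. Hspa13, an Hsp70-like protein of microsomes, lay at 0.304, 0.247, 0.516 and 0.351 on controls 1 to 4, and at 0.660, 0.940, 0.921 and 0.675 on NaPB 1 to 4. Its diets did not overlap, both of its features were higher, and its log2 difference of 1.21 ± 0.30 did not pass (limma adjusted p = 0.111). Txndc11, a thioredoxin domain protein, had 0.55 ± 0.24 (limma adjusted p = 0.479), also without overlap, and its other feature pointed the other way, at −0.52. P4hb, the classical protein disulfide isomerase, was chosen after its values were seen: it lay between 5.21 and 7.86 in the controls, and at 11.0, 15.3, 11.1 and 6.21 on NaPB 1 to 4 (log2 0.71 ± 0.32; limma adjusted p = 0.503, and 0.144 without NaPB replicate 4).

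Of 24 genes of disposal of misfolded protein (ERAD), 0 were called by limma and 2 had an unadjusted p below 0.05, 1 in each direction. The median log2 difference was 0.15 with all arrays, 0.37 without NaPB replicate 4 and 0.47 without both arrays that stand apart. Over all genes these medians were 0.01, 0.05 and 0.03. The list median was the highest of the controls on control replicate 1 (0.36) and the lowest of the NaPB arrays on NaPB replicate 4 (−0.35). Its rise thus follows in part from which arrays were left out. Ube2g2, a ubiquitin-conjugating enzyme of this pathway, lay between 8.39 and 20.6 on the control and between 4.59 and 6.33 on the NaPB arrays, without overlap. Its log2 difference of −1.10 ± 0.32 did not pass (limma adjusted p = 0.18), and its other feature gave 0.33. Edem3, a mannosidase that marks glycoproteins for disposal, had 0.89 ± 0.40 (limma adjusted p = 0.493).

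Genes of protein entry into the endoplasmic reticulum, including signal peptidase and glycosylation subunits, lay mostly above 0 without single calls. Of 29 genes, 0 were called by limma, 4 (13.8%) had an unadjusted p below 0.05, all higher, against 10.1% of all genes. Of the 29, 26 (89.7%) lay above 0, against 51.2% of all genes, with a median log2 difference of 0.41, and 0.63 without both arrays that stand apart. The list median was 0.46, 0.65 and 0.43 log2 units over the mean of the controls on NaPB 1 to 3 and −0.07 on NaPB replicate 4, and between −0.37 and 0.24 on the control arrays. Control replicate 1 was the highest of the controls (0.24), so the rise to 0.63 follows in part from which arrays were left out. Srp19, of the signal recognition particle, lay between 1.27 and 1.74 on controls 1 to 4, and at 2.68, 3.62, 3.13 and 1.58 on NaPB 1 to 4 (log2 0.82 ± 0.31; limma adjusted p = 0.364). Ost4, a small subunit of oligosaccharyltransferase, lay between 2.08 and 3.27 on controls 1 to 4, and at 7.79, 7.91, 7.56 and 2.59 on NaPB 1 to 4 (log2 1.13 ± 0.39; limma adjusted p = 0.299). NaPB replicate 4 lay inside the control range for both. Without that array Ost4 was called (log2 1.52, limma adjusted p = 0.023), and its other feature gave 0.30 with all arrays.

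The sensors and their regulators gave no call. Of 18 genes, 0 were called by limma, 1 had an unadjusted p below 0.05, 9 lay above 0 and the median was −0.01. Leaving out NaPB replicate 4 gave 0.14, and leaving out both arrays that stand apart gave 0.21, with 13 of 18 above 0. For this list too, control replicate 1 was the highest control (median deviation 0.19) and NaPB replicate 4 the lowest array (−0.61). This rise therefore follows in part from which arrays were left out. Creb3l2, a membrane-bound transcription factor, had 0.78 ± 0.32 (limma adjusted p = 0.434), and Atf6b, a relative of ATF6, had 0.54 ± 0.29 (limma adjusted p = 0.614). Neither of them overlapped between the diets, a trait that 2.72% of all genes showed with NaPB higher. Of 26 genes of the ATF4 and CHOP arm, 0 were called by limma and 0 had an unadjusted p below 0.05, with a median of 0.04. Trib3, a pseudokinase induced by CHOP, had 0.83 ± 0.39 (limma adjusted p = 0.524), and Ddit4, an inhibitor of mTORC1, had 1.17 ± 0.63 (limma adjusted p = 0.614). Chac1, a glutathione-degrading enzyme induced through ATF4, was chosen after its values were seen. It lay at 0.433, 0.176, 0.577 and 0.445 on the control arrays, at 0.0434, 0.0606 and 0.0776 on NaPB 1 to 3, and at 2.23 on NaPB replicate 4. NaPB replicates 1 and 2 were at the floor for Chac1 (0.0736 and 0.0815 on these arrays). The gene was not called with all arrays (log2 −1.36 ± 1.052) and was called lower without NaPB replicate 4 (limma adjusted p = 0.0211), but 2 of the 3 NaPB arrays then left are those at the floor, so no size is given. NaPB replicate 4 was thus the highest array for Chac1 as for Ddit3.

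The remaining lists gave no call either. Of 10 genes of cell death known from this kind of stress, 0 were called by limma and 0 had an unadjusted p below 0.05 (median −0.0013); Bak1, an effector of mitochondrial permeability, had 0.53 ± 0.29 and Bcl2, its opponent, −0.58 ± 0.36. Of 16 genes that shape the endoplasmic reticulum membrane, 0 were called by limma and 1, Rtn4, had an unadjusted p below 0.05 (log2 −0.97 ± 0.37; limma adjusted p = 0.369); the list median was −0.26, and 0.05 without both arrays that stand apart. Atl1, a membrane-fusing GTPase, had −1.36 ± 0.75 with 5 arrays at the floor. Of 24 chaperones of the cytosol and mitochondria, 0 were called by limma and 0 had an unadjusted p below 0.05, with a median of 0.04. Hsf2, a heat shock factor, had −0.74 ± 0.36 and Dnaja3, a mitochondrial J protein, 0.60 ± 0.30. The median of this list was 0.29, 0.64 and 0.56 log2 units over the mean of the controls on NaPB 1 to 3 and −1.24 on NaPB replicate 4. Without that array the median difference was 0.52, against 0.05 over all genes. Hsp90aa1, the inducible cytosolic Hsp90, chosen after its values were seen, lay between 22.5 and 39.2 on the control arrays, between 45.6 and 49.5 on NaPB 1 to 3 and at 4.68 on NaPB replicate 4.

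**Figure D5:**
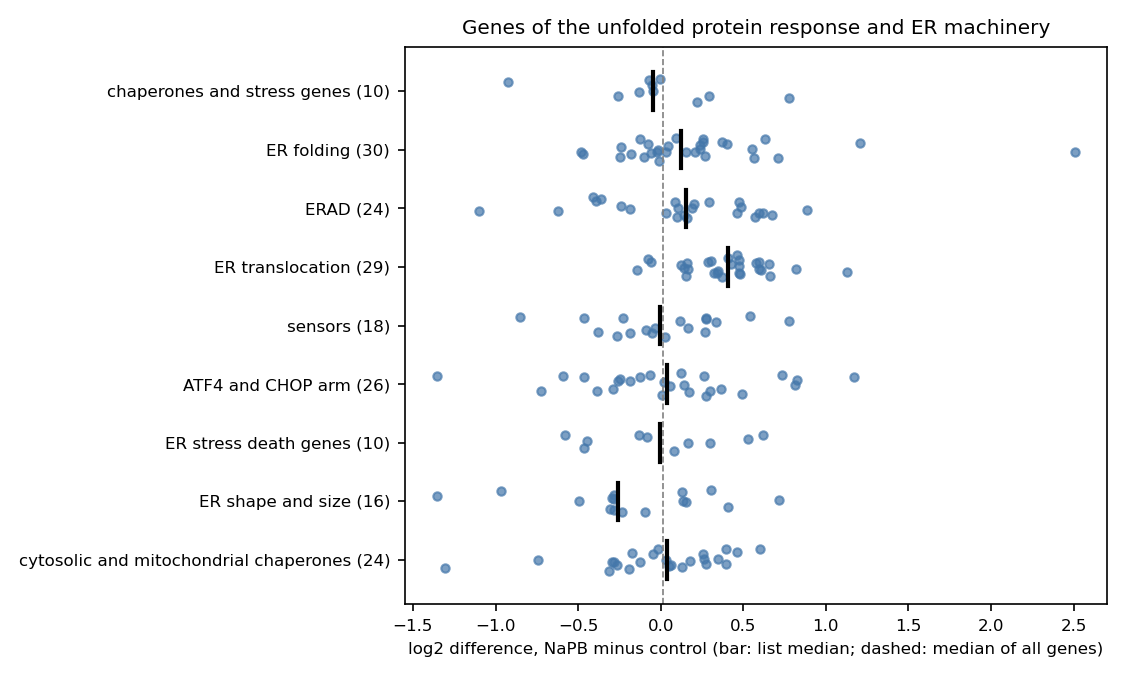
Log2 difference between the diets, NaPB minus control (horizontal axis), of each gene (points) in the 10 chaperone and stress genes and the 8 lists (rows, number of genes in brackets), with the list median as a bar and the median of all genes dashed. The genes of protein entry (ER translocation) have the highest median, 0.41; the point at 2.51 is Uggt1, whose value rests on NaPB replicate 4.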

How the data were processed

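Liver RNA of 8 samples was measured, 1 array each. The intensity values are as deposited: per the submitters' processing notes, the authors used Agilent Feature Extraction 10.7, and the values show that each array was scaled to a 75th percentile close to 1 (0.952 to 0.974). How background, flags and scaling were handled is not given in the sources used here, so dim values are uncertain. NaPB replicate 2 held only 3443 distinct values, against 62756 to 62839 on each of the other arrays, and the reason is not known. Of 62976 features, 31465 carried 1 gene symbol, 0 several and 31511 none; 3282 symbols were updated. Each gene was represented by its brightest feature (highest mean log2 value), with no filter. The intensities were log2-transformed and the diets compared with limma 3.58.1 in R 4.3.3 (lmFit, eBayes; two-sided; Benjamini-Hochberg over 20738 genes). Groups follow the labels. Replicate numbers were not used as pairs in the main fit. Correlations of same-numbered deviations were 0.23, −0.286, 0.038 and 0.231 for replicates 1 to 4. With the other numbers they ran from −0.351 to 0.334, −0.234 to 0.374, −0.104 to 0.057 and −0.252 to 0.113. Replicate 4 was above its range, replicate 2 below it, and replicates 1 and 3 inside.

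The members and lists were chosen with earlier results of these data known. Named genes were all members, called genes and the 2 with the smallest p of each list, and the 5 most like Hspa5 and Ddit3; others are said to have been chosen after their values were seen. Alternatives covered scaling, filters, features, pseudocounts, variance model, array weights, the block, left-out arrays and thresholds. Listed genes with no match were not analysed here.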

Additional observations from a re-analysis of the deposited data

Results flagged for a closer look

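Of 108 groups of 4 arrays of 1 diet, which cover every feature of the 10 genes and each other gene given with its own difference or values as a list gene, a likeness gene or a gene chosen after its values were seen, 11 had 1 array far from the rest by Dixon's criterion at its 95% critical value, on log2 intensities. Chance flags about 1 in 20 groups, and the genes chosen for their values or for likeness to Ddit3 are no random set. Among the 10 genes only Ddit3 was in this set, at 2.03 on NaPB replicate 4 against 1.08 to 1.18 on the other NaPB arrays. On the same array, against the other 3 NaPB arrays, Ost4 was at 2.59 (7.56 to 7.91), Hsp90aa1 at 4.68 (45.6 to 49.5), Chac1 at 2.23 (0.0434 to 0.0776) and Uggt1 at 1019 (6.05 to 6.85). So were the genes most like Ddit3: Epha1 at 4.21 (1.11 to 1.30), Krtap11-1 at 9.44 (0.600 to 0.863), Orm1 at 58.4 (21.2 to 24.7) and Orm2 at 86.2 (31.3 to 33.9). On control replicate 1, Atf6b was at 0.341 against 0.536 to 0.573 on the other controls, and Hsp90aa1 at 39.1 against 22.5 to 23.5.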

How the results depend on the processing

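None of the 10 genes was called by limma under any alternative run, and 7 of the 23 alternatives (thresholds, filters, single features, variance model and block) cannot move a log2 difference. Under the other 16, 132 of 160 differences kept their sign and 28 turned it; Dnajb9, Sdf2l1 and Ddit3 kept theirs in all 16. Under quantile normalization the SE was 0.20 for Hspa5, 0.18 for Calr and 0.16 for Pdia6, against 0.38, 0.34 and 0.33 without it. Of the 10 genes, only Xbp1 (0.334 against 0.299) and Ddit3 (0.2817 against 0.2812) had a higher SE under it. With array weights the differences were 0.28 for Hspa5, 0.072 for Hsp90b1, 0.043 for Calr, 0.16 for Pdia4 and 0.14 for Pdia6. Without both arrays that stand apart they were 0.43 for Hspa5, 0.11 for Hsp90b1, 0.17 for Calr, 0.29 for Pdia4, 0.28 for Pdia6 and 0.041 for Xbp1. Leaving out 1 array at a time gave −0.23 to 0.20 for Hspa5, −0.22 to 0.052 for Hsp90b1, −0.42 to 0.024 for Calr, −0.19 to 0.17 for Pdia4, −0.27 to 0.13 for Pdia6, −0.034 to 0.49 for Creld2 and −0.16 to 0.18 for Xbp1. Among the lists, 1 ERAD gene (Ube2g2) was called under quantile normalization. With array weights 1 folding gene (Hspa13) and 2 translocation genes (Srp19 and Ost4) were called. Without both arrays 1 translocation gene (Ost4), 1 gene of the ATF4 and CHOP arm (Chac1) and 1 cytosolic chaperone (Hsp90aa1) were called. Leaving out 1 array gave 0 to 1 translocation genes and 0 to 1 genes of the ATF4 and CHOP arm, the 1 in each without NaPB replicate 4. The cause of these changes was not tested. Over all genes 209 were called, against 812 with array weights, 328 under quantile normalization, 111 after median scaling, 135 with the replicate block, 570 without both arrays and 88 to 365 leaving out 1. With the replicate block 0 of the 10 genes were called. Thresholds of 0.01 and 0.1 gave 58 and 364. The number of arrays limits the precision, and for values near the floor the unstated background correction does too.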

Other observations

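Markers of other liver cells were read beside the chaperones, and their part in the chaperone values was not tested. Of 12 markers of Kupffer cells, the resident macrophages, 0 were called by limma, 4 (33.3%) had an unadjusted p below 0.05 and 1 (8.33%) lay above 0, against 10.1% and 51.2% of all genes, with a median log2 difference of −0.47; their summed intensity was 35.9 to 40.7 in the controls and 25.4 to 30.3 on NaPB. Of 10 hepatocyte markers 0 were called by limma, 3 (30.0%, against 10.1% of all genes) had an unadjusted p below 0.05, all lower, and the median was −0.41, and −0.23 without both arrays that stand apart. Albumin (Alb) had −1.24 ± 0.36 and apolipoprotein A1 (Apoa1) −1.0005 ± 0.28, without overlap between the diets and without passing (limma adjusted p of 0.19 and 0.167). Of 7 neutrophil markers, 1 was called, against 1.01% of all genes: S100a8, a calcium-binding protein of neutrophils, lay between 0.246 and 0.464 in the controls and at 46.3, 126.1, 71.0 and 2.02 on NaPB 1 to 4. Its limma adjusted p was 0.0176, while the other 6 were not called. The median differences of the remaining marker lists, with 0 calls each by limma, were −0.01 for plasma and B cells, −0.09 for endothelial cells, 0.04 for stellate cells, 0.13 for cholangiocytes, 0.16 for T and NK cells, 0.08 for pancreas acinar cells and −0.20 for erythroid cells, and 0, 1, 1, 0, 0, 1 and 1 of their genes had an unadjusted p below 0.05. Without both arrays that stand apart the medians of these lists were 0.14, 0.18, 0.0083, −0.17, 0.31, 0.08 and 0.01, and 0 of 6 cholangiocyte markers lay above 0. In that fit 1 erythroid gene, Alas2, the heme synthesis enzyme of red cell precursors, was called (log2 −2.99, limma adjusted p = 0.00662, and 0.186 with all arrays). Alas2 lay at 1.65 on control replicate 1, inside the NaPB range of 1.03 to 2.35, and between 8.29 and 15.98 on controls 2 to 4. Its call thus rests on leaving out that control.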
